A study of Homo sapiens with 12 samples.

Results

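Mitosis and G2/M genes encode the machinery that takes a cell from the end of DNA replication through division: the cyclin-CDK switch, the mitotic kinases, the kinetochore and its checkpoint, the spindle motors, and the factors of sister separation and cytokinesis. The set held 46 genes, listed by name, of 11884 human genes measured. It was chosen with earlier results of these data known. Each gene was read at the probe set with its own name that was brightest by mean log2 intensity over 12 arrays, and all 46 members had one. For 19 members 2 or more probe sets were present, and for 27 only 1.

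All arrays came from HEL, an erythroleukaemia line that grows without added cytokine and carries the JAK2V617F allele, which the series design calls homozygous; the controls carry it too. The groups were the JAK2 hairpin Jak2-9, the JAK2 hairpin Jak2-10, a luciferase hairpin control (Luc) and a GFP control, with 3 arrays each. Hairpins were delivered by lentivirus in a pLKO vector with puromycin selection, and the labels call GFP a vector control in one field and a hairpin control in others. No label gives the time after infection. HEL is a single line, so the groups speak of that line only. The replicates are not said to be separate cultures. The p-values set differences between group means against the spread of arrays within groups, and that spread may be technical.

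As background, entry into mitosis is driven by CDK1 bound to cyclins A and B, which CDC25 phosphatases switch on and Polo-like and Aurora kinases reinforce. Unattached kinetochores hold the spindle checkpoint active through the MAD and BUB proteins, which bind CDC20 and so block the anaphase-promoting complex (APC/C); its release degrades securin and cyclin B and lets separase part the sisters. Most of these genes are transcribed in G2 and mitosis under the MuvB complex with B-MYB and FOXM1, which acts at promoter elements named CHR and at CCAAT boxes bound by NF-Y. JAK2 signals through STAT transcription factors downstream of cytokine receptors, and erythroid cells depend on it for survival and proliferation. A lower or higher level in bulk RNA may be fewer or more cells in G2 and mitosis, or less or more RNA in each such cell; these cannot be told apart here.

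The RefSeq promoter windows (GRCh38.p14, 250 bases before to 50 after a gene's start) were searched for both elements, since the choice of members did not use sequence. Windows were found for 38 of the 46 members, 50 windows in all. The CHR hexamer, TTTGAA or TTCGAA on either strand, stood in 32 of the 50 (64%), against 16.4% of all 35116 windows. The letters CCAAT on either strand stood in 37 (74%), against 34.6% of all windows, and both together in 27 (54%), against 6.38%; a hexamer and a CCAAT can share at most 1 base. A hexamer starting within 50 bases of the start site was present in 52% of the members' windows and in 5.01% of all. By gene, 28 members held the hexamer in a window, 31 held CCAAT and 24 held both. Both windows of AURKB held CCAAT and no CHR hexamer, and KIF14 held its hexamer after the start, at 2, and CCAAT at -22. No window was found for UBE2C. Of the 7 members at an unadjusted p under 0.05 after JAK2 knockdown, the 120 bases before the start are shown for the 4 that hold both elements within them, PLK1, KIF4A and CDC20, which were higher, and KIF23, which was lower, with the CHR hexamer and CCAAT (or ATTGG, its reverse) in capitals, all on the + strand.
PLK1 chr16:23678769-23678888: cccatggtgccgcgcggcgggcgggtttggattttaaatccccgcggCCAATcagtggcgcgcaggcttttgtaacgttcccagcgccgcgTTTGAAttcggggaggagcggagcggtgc
KIF4A chrX:70289984-70290103: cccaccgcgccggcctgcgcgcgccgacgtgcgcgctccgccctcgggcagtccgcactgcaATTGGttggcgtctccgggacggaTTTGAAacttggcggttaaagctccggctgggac
CDC20 chr1:43358861-43358980: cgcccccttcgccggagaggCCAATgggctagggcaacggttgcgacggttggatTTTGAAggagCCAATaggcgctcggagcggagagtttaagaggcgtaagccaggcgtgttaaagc
KIF23 chr15:69414229-69414348: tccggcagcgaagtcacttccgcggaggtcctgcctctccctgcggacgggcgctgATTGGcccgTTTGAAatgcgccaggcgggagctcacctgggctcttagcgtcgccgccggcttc
In PLK1 the hexamer starts at -29 and CCAAT at -73, counted from the start site with -1 as the base before it. In KIF4A they start at -34 and -58, and in KIF23 at -55 and -64. CDC20 has its hexamer at -65 between CCAAT letters at -100 and -55. A match is a run of letters, and binding was not measured.

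As a check of the labels, JAK2, which both hairpins target, read 9.37, 9.89 and 10.09 with Jak2-9, 10.06, 10.04 and 9.78 with Jak2-10, 10.47, 10.63 and 10.56 with Luc, and 10.47, 10.40 and 10.68 with GFP (log2 intensity, replicates 1 to 3). Every knockdown array lay below every control array, and JAK2 stood at 63.1% of its control level over both hairpins (limma log2 difference -0.67, standard error (SE) 0.11, adjusted p = 0.00400). By hairpin the level was 59.3% for Jak2-9 (adjusted p = 0.00766) and 67.0% for Jak2-10 (adjusted p = 0.0821), which missed the threshold of 0.05. The lowest value was that of Jak2-9 replicate 1 (9.37). Replicates 2 and 3 of that hairpin (9.89 and 10.09) lay close to the Jak2-10 arrays (9.78 to 10.06). Of 9 measured erythroid and megakaryocytic markers, 9 were above the brightest of 114 mouse probe sets on all 12 arrays, a level used as background. Of 7 markers of other blood cells 5 were above it on no array, while CD79A, of B cells, was above it on 11 arrays (median 5.78) and CD3D, of T cells, on 1. Of 4 markers of non-blood cells 3 were above it on no array and the collagen gene COL1A1 on 1. The brightest mouse probe set lay between 5.25 and 5.62 on the log2 scale, and all 46 members were above it on every array, the dimmest at 6.52.

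One array stood apart. On Jak2-9 replicate 1, 253 genes (2.13%) were over 2-fold away from the average of replicates 2 and 3, against 0 to 13 genes on the other 11 arrays. The members CENPE, CENPF, KIF14 and MKI67 were among them. Its 3'-minus-5' differences were the highest of all arrays for ACTB (0.417, against 0.131 to 0.384) and GAPDH (0.095, against -0.132 to -0.004), a sign of RNA or labelling quality. Jak2-10 replicate 3 had a mean of 10.73 for its E. coli hybridisation controls, against 9.39 to 9.98 elsewhere. Leaving out Jak2-9 replicate 1 turned the sign of the difference after knockdown for 11 of the 46 members, and leaving out Jak2-10 replicate 3 for 4 (BUB1, BUB1B, BUB3 and CDK1). Without Jak2-10 replicate 3 the sign of the Jak2-10 difference turned for 13.

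No member of the set passed the threshold when both JAK2 hairpins were set against both controls: 0 of 46 were called, against 1.83% of all genes (0.438% higher and 1.40% lower; limma, Benjamini-Hochberg over 11884 genes). At an unadjusted p under 0.05 there were 7 members (15.2%), against 16.3% of all genes. PLK1, AURKB, CDC20, KIF4A and UBE2C were the 5 higher ones (10.6% of all genes), and KIF14 and KIF23 the 2 lower ones (5.74% of all genes). Without Jak2-10 replicate 3 there were 11 such members, with AURKA, KIF20A, BIRC5 and NEK2 added as higher, against 16.4% of all genes. Without Jak2-9 replicate 1 there were 8, with CENPE added as higher, against 14.3%. The median difference over the members was 0.025 on the log2 scale, with a range of -0.42 for KIF14 to 0.31 for PLK1, against a median of 0.04 over all genes; without Jak2-10 replicate 3 the medians were 0.059 for the members and 0.049 for all genes. The 95% interval of the difference lay within 1.5-fold in both directions for 43 of the 46 members; those of CENPF, KIF14 and MKI67 were wider. Only PLK1 had all 6 knockdown arrays above all 6 control arrays, 1 of 46 (2.17%), against 1.20% of all genes, and no member had all 6 below, against 1.51%. Without Jak2-10 replicate 3, AURKB, KIF4A and UBE2C joined PLK1 (4 of 46), while 5.42% of all genes did not overlap in either direction. With weights on the arrays PLK1, AURKB and KIF4A passed the threshold, 3 of 46, as did 541 of all genes.

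**Figure D1:**
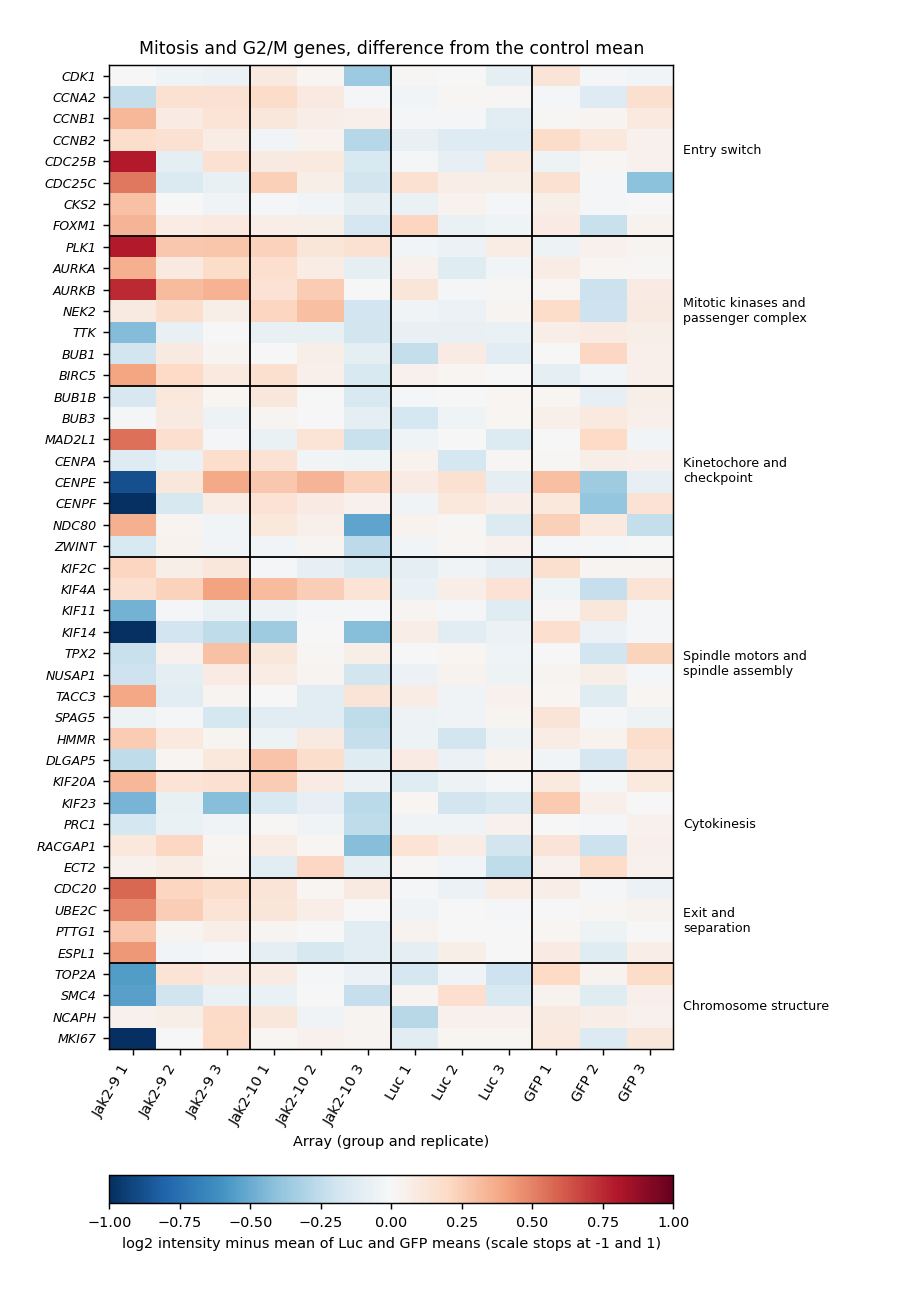
Difference of each member's log2 intensity from the control mean (rows, grouped by role) on each of the 12 arrays (columns), with red for higher and blue for lower. The strongest colours lie in the column of Jak2-9 replicate 1, where members ran from -1.64 to 0.80. Jak2-10 replicate 3 is mostly blue, with 11 of 46 members (23.9%) above the control mean, against 41.3% of all genes.

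The switch into mitosis comprised 8 members, none of which passed in any comparison. CCNB1 encodes cyclin B1, the partner of CDK1. CCNB1 read 10.94, 10.69 and 10.74 with Jak2-9, 10.72, 10.68 and 10.66 with Jak2-10, 10.59, 10.59 and 10.50 with Luc, and 10.62, 10.63 and 10.70 with GFP (log2 intensity). All 6 knockdown arrays exceeded 5 of the 6 control arrays, and GFP replicate 3 lay within their range. The difference was 0.13 (SE 0.07, adjusted p = 0.338), with 0.19 for Jak2-9 and 0.08 for Jak2-10. CDC25B, a phosphatase that activates CDK1, read 9.25, 8.35 and 8.60 with Jak2-9, 8.54, 8.55 and 8.29 with Jak2-10, 8.43, 8.36 and 8.55 with Luc, and 8.40, 8.46 and 8.49 with GFP. Its value of 9.25 on Jak2-9 replicate 1 was the highest by far, and the other 5 knockdown arrays lay among the controls or close to them on either side. The CDC25B difference was 0.15 (SE 0.12, adjusted p = 0.562) with both hairpins. For Jak2-9 alone it was 0.28 with all 3 arrays and 0.03 without replicate 1. The kinase itself, CDK1, differed by -0.06, the cyclin A2 gene CCNA2 by 0.05, the cyclin B2 gene CCNB2 by 0.02, the CDK subunit gene CKS2 by 0.02, the phosphatase gene CDC25C by 0.07 and the transcription factor gene FOXM1 by 0.08 after knockdown. Over the 8 members the median was 0.06. It was 0.016 without Jak2-9 replicate 1, with CDC25B at 0.02, CCNA2 at 0.12, CCNB2 at 0.01, CKS2 at -0.03, CDC25C at -0.04 and FOXM1 at 0.04, and CCNB1 was at 0.11 with Jak2-9.

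The mitotic kinases and the chromosomal passenger complex held the members with the largest positive differences. PLK1 encodes Polo-like kinase 1, which acts in mitotic entry, at spindle poles and in cytokinesis. Its log2 intensity was 10.69, 10.16 and 10.17 with Jak2-9, 10.12, 10.01 and 10.04 with Jak2-10, 9.86, 9.83 and 9.96 with Luc, and 9.84, 9.94 and 9.92 with GFP. All knockdown arrays lay above all control arrays, with Jak2-9 replicate 1 the highest. PLK1 averaged 10.34 ± 0.30 with Jak2-9, 10.06 ± 0.06 with Jak2-10, 9.88 ± 0.07 with Luc and 9.90 ± 0.05 with GFP (SD, n = 3 each). With both hairpins PLK1 was 0.31 above control (SE 0.09, 95% interval 0.12 to 0.50, adjusted p = 0.118), which missed the threshold. PLK1 rose with Jak2-9 by 0.45 (SE 0.11, adjusted p = 0.0418, 136% of control); without replicate 1 the difference was 0.27 and no longer passed (adjusted p = 0.135). With Jak2-10 it was 0.17 (adjusted p = 1.00).

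AURKB encodes Aurora B, the kinase of the passenger complex, which corrects faulty attachments and acts in cytokinesis. AURKB read 9.41, 8.98 and 9.01 with Jak2-9, 8.81, 8.92 and 8.66 with Jak2-10, 8.78, 8.65 and 8.67 with Luc, and 8.68, 8.44 and 8.74 with GFP (log2 intensity). The 3 Jak2-9 arrays were above all control arrays, while Jak2-10 replicate 3 lay among the controls. AURKB averaged 9.13 ± 0.24 with Jak2-9, 8.80 ± 0.13 with Jak2-10, 8.70 ± 0.07 with Luc and 8.62 ± 0.16 with GFP (SD, n = 3 each). AURKB rose with Jak2-9 by 0.47 (SE 0.11, adjusted p = 0.0354, 138% of control), against a difference of 0.33 without replicate 1, which did not pass (adjusted p = 0.142). The difference with both hairpins was 0.30 (SE 0.09, adjusted p = 0.124). PLK1 and AURKB were the only members called in any of the 5 comparisons, 2 of 46 (4.35%) in Jak2-9 against control, where 3.09% of all genes were called and 1.61% were called higher. Both calls were lost in fits without Jak2-10 replicate 1, GFP replicate 1, GFP replicate 2 or any 1 of the Luc arrays, with either control alone, or with only the 9 arrays compared. PLK1 alone was lost without Jak2-10 replicate 2, Jak2-10 replicate 3 or GFP replicate 3.

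The other members of this role were nearer to control. AURKA, the spindle pole kinase Aurora A, differed by 0.13 (adjusted p = 0.388) and BIRC5, the passenger subunit survivin, by 0.12 (adjusted p = 0.431) after knockdown. With Jak2-9 AURKA was at 0.21 and BIRC5 at 0.23, and in both genes the 3 Jak2-9 arrays lay above all controls. NEK2, a centrosome kinase, differed by 0.11, the checkpoint kinase gene TTK by -0.14 and BUB1, a checkpoint kinase at kinetochores, by -0.02. The 7 members of this role had a median of 0.125 after knockdown, with 0.21 for Jak2-9 and 0.05 for Jak2-10. The Jak2-9 median was 0.137 without replicate 1 of that group, with AURKA at 0.14 and BIRC5 at 0.15, and after knockdown TTK was at -0.08 and BUB1 at 0.02.

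Kinetochore and checkpoint genes did not pass in any comparison, and their median was -0.003 over 8 members. CENPF encodes a large protein of the outer kinetochore that accumulates in G2. CENPF read 8.89, 10.08 and 10.31 with Jak2-9, 10.39, 10.33 and 10.28 with Jak2-10, 10.21, 10.35 and 10.31 with Luc, and 10.35, 9.86 and 10.39 with GFP (log2 intensity). Jak2-9 replicate 1 was the lowest by far, and the other knockdown arrays lay within the range of the controls. The CENPF difference after knockdown was -0.20 (SE 0.19, adjusted p = 0.625), and without Jak2-9 replicate 1 it was 0.02. ZWINT, which anchors checkpoint proteins at the kinetochore, read 11.06, 11.25 and 11.18 with Jak2-9, 11.18, 11.24 and 10.95 with Jak2-10, 11.18, 11.23 and 11.26 with Luc, and 11.19, 11.19 and 11.21 with GFP. Its lowest values were Jak2-10 replicate 3 and Jak2-9 replicate 1, and the other 4 knockdown arrays lay within the range of the controls or at its lower edge (difference -0.07, SE 0.07, adjusted p = 0.649). Among the checkpoint proteins, MAD2L1 (MAD2) differed by 0.09, BUB1B (BUBR1) by -0.01 and BUB3 by -0.01. CENPA, the centromeric histone, differed by 0.01, the kinetochore motor CENPE by 0.08 and NDC80, the microtubule anchor, by 0.00. CENPE was -0.13 with Jak2-9, 0.25 with that group's replicates 2 and 3 alone, and 0.28 with Jak2-10. The median of the role was 0.018 after knockdown when Jak2-9 replicate 1 was left out, with CENPE at 0.26, MAD2L1 at 0.01, ZWINT at -0.04, BUB1B at 0.03, CENPA at 0.04, BUB3 at 0.00 and NDC80 at -0.06.

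Spindle motors and assembly factors held the member with the largest negative difference. KIF14 encodes a kinesin that works in cytokinesis with PRC1 and citron kinase. KIF14 read 7.77, 8.86 and 8.80 with Jak2-9, 8.70, 9.05 and 8.63 with Jak2-10, 9.12, 8.95 and 9.00 with Luc, and 9.23, 9.00 and 9.04 with GFP (log2 intensity). The 3 Jak2-9 arrays and Jak2-10 replicates 1 and 3 were below all controls, Jak2-10 replicate 2 lay among the controls, and Jak2-9 replicate 1 was lowest. The KIF14 difference after knockdown was -0.42 (SE 0.16, 95% interval -0.76 to -0.09, adjusted p = 0.202). By hairpin it was -0.58 with Jak2-9 (adjusted p = 0.0948), -0.22 without replicate 1 of that group, and -0.26 with Jak2-10. KIF4A, a chromokinesin of the chromosome arms and central spindle, read 8.51, 8.58 and 8.75 with Jak2-9, 8.66, 8.60 and 8.49 with Jak2-10, 8.28, 8.41 and 8.49 with Luc, and 8.31, 8.12 and 8.49 with GFP. Its knockdown arrays were higher on average, and Luc replicate 3 and GFP replicate 3 reached the lowest of them, Jak2-10 replicate 3. KIF4A was 0.25 above control (SE 0.08, adjusted p = 0.155), with 0.26 for Jak2-9 and 0.23 for Jak2-10, and it was the only member at an unadjusted p under 0.05 with Jak2-10 (1 of 46, 2.17%, against 5.76% of all genes, 2.65% in the same direction). In the fit without Jak2-9 replicate 1 there were 4, KIF4A, PLK1 and CENPE higher and KIF14 lower, against 10.4% of all genes, and without Jak2-10 replicate 3 there were 2, KIF4A and NEK2. The remaining 8 members of this role ran from -0.12 for SPAG5 (astrin) to 0.06 for TACC3, a spindle microtubule protein, and included KIF11, the motor that keeps the spindle bipolar, at -0.10, the microtubule depolymerase KIF2C at 0.02 and TPX2, the activator of Aurora A, at 0.05. When Jak2-9 replicate 1 was left out, KIF14 was at -0.24 after knockdown, TACC3 at -0.01, KIF11 at -0.03, KIF2C at 0.003 and TPX2 at 0.12.

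In cytokinesis the centralspindlin motor KIF23 and the passenger-transport motor KIF20A differed in opposite directions. KIF23 read 7.85, 8.25 and 7.89 with Jak2-9, 8.16, 8.24 and 8.05 with Jak2-10, 8.34, 8.14 and 8.17 with Luc, and 8.58, 8.37 and 8.32 with GFP (log2 intensity). Of the knockdown arrays, Jak2-9 replicates 1 and 3 and Jak2-10 replicate 3 lay below the lowest control, Luc replicate 2, and the others overlapped the controls. The KIF23 difference after knockdown was -0.25 (SE 0.08, adjusted p = 0.182). KIF20A read 9.73, 9.53 and 9.55 with Jak2-9, 9.65, 9.48 and 9.34 with Jak2-10, 9.28, 9.35 and 9.39 with Luc, and 9.50, 9.38 and 9.50 with GFP. The 3 Jak2-9 arrays were above all controls, the lowest of them Jak2-9 replicate 2, and Jak2-10 overlapped them. The KIF20A difference was 0.15 (SE 0.07, adjusted p = 0.324). RACGAP1, the partner of KIF23, differed by 0.00, the microtubule bundler PRC1 by -0.09 and ECT2, which activates RhoA at the cleavage furrow, by 0.02.

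Among the genes of mitotic exit and sister separation, both genes that work directly with the APC/C were higher on average. CDC20, the APC/C activator that the checkpoint inhibits, read 12.33, 11.97 and 11.93 with Jak2-9, 11.88, 11.78 and 11.85 with Jak2-10, 11.74, 11.70 and 11.83 with Luc, and 11.82, 11.74 and 11.70 with GFP (log2 intensity). The Jak2-9 arrays were above all controls, and of the Jak2-10 arrays replicate 2 lay among the controls. With both hairpins the CDC20 difference was 0.20 (SE 0.08, adjusted p = 0.223), and with Jak2-9 it was 0.32 (adjusted p = 0.0705). UBE2C, the ubiquitin-conjugating enzyme of the APC/C, read 10.86, 10.63 and 10.52 with Jak2-9, 10.50, 10.45 and 10.39 with Jak2-10, 10.35, 10.39 and 10.36 with Luc, and 10.39, 10.39 and 10.42 with GFP. The control arrays spanned only 10.35 to 10.42, the Jak2-9 arrays were all above them, and Jak2-10 replicate 3 fell within them. The UBE2C difference was 0.18 with both hairpins (SE 0.07, adjusted p = 0.227) and 0.29 with Jak2-9 (adjusted p = 0.0698). With Jak2-10 the difference was smaller, 0.08 for CDC20 and 0.06 for UBE2C. Neither gene passed in any comparison. PTTG1 (securin) differed by 0.05 and ESPL1 (separase) by 0.00. Without Jak2-9 replicate 1 the Jak2-9 difference was 0.19 for CDC20 (adjusted p = 0.326) and 0.19 for UBE2C (adjusted p = 0.308), and after knockdown PTTG1 was at 0.01 and ESPL1 at -0.07.

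Chromosome structure genes had a median of -0.12 over 4 members after knockdown, and of 0.062 without Jak2-9 replicate 1. MKI67, the Ki-67 protein that coats mitotic chromosomes and marks proliferating cells, read 8.49, 10.14 and 10.33 with Jak2-9, 10.15, 10.18 and 10.16 with Jak2-10, 10.03, 10.15 and 10.15 with Luc, and 10.23, 9.99 and 10.24 with GFP (log2 intensity). The other 11 arrays lay between 9.99 and 10.33, and Jak2-9 replicate 1 was far below them. The MKI67 difference after knockdown was -0.22 (SE 0.23, adjusted p = 0.649); without Jak2-9 replicate 1 it was 0.07. SMC4, the ATPase core of condensin, read 11.07, 11.42 and 11.55 with Jak2-9, 11.55, 11.62 and 11.39 with Jak2-10, 11.65, 11.79 and 11.47 with Luc, and 11.65, 11.50 and 11.67 with GFP. Jak2-9 replicates 1 and 2 and Jak2-10 replicate 3 were below the lowest control, and the difference was -0.19 (SE 0.09, adjusted p = 0.334). The condensin subunit gene NCAPH differed by 0.07 and TOP2A, the topoisomerase that untangles sister DNA, by -0.05. Leaving out Jak2-9 replicate 1 put SMC4 at -0.12 and TOP2A at 0.06.

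**Figure D2:**
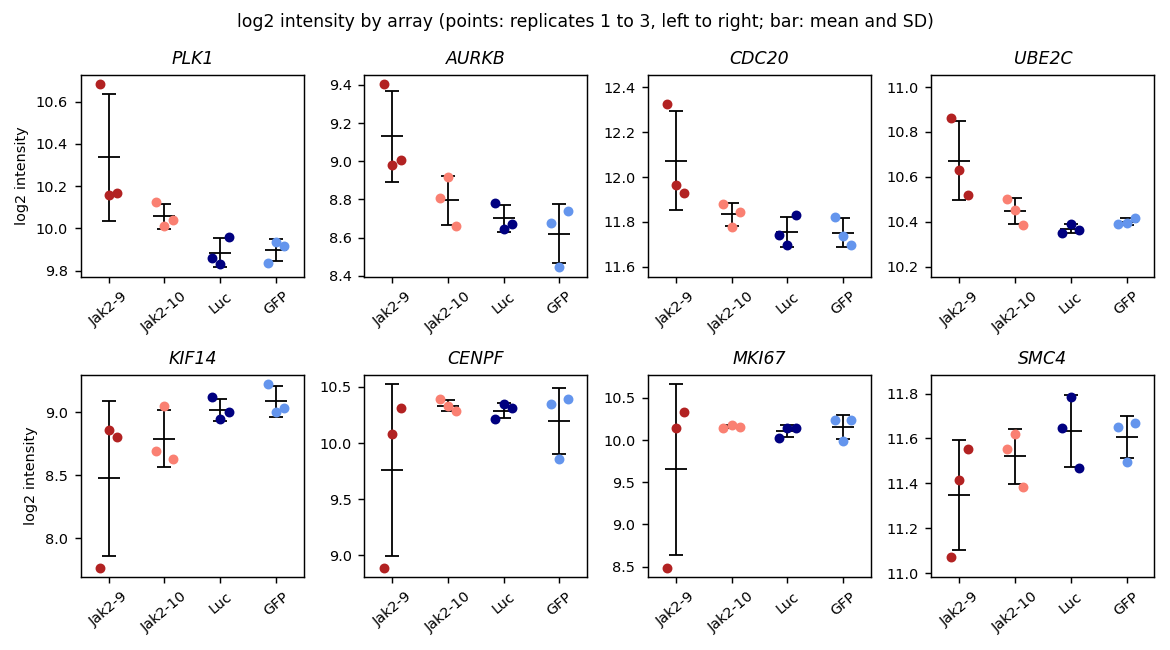
log2 intensity of 8 members on every array, by group (points, replicates 1 to 3 from left to right; bars, mean and SD). PLK1 is the panel whose knockdown points all lie above its control points, and in KIF14, CENPF and MKI67 Jak2-9 replicate 1 lies far below the other arrays.

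The hairpins were then set side by side. Both comparisons use the same 6 control arrays, so they are not independent of each other. With Jak2-9 the members' median was 0.09 and 9 members (19.6%) were higher and 3 (6.52%) lower at an unadjusted p under 0.05, against 17.1% and 7.25% of all genes, whose median was 0.06. Without Jak2-9 replicate 1 there were 6 such members (12.6% of all genes): PLK1, AURKB, CDC20, KIF4A and UBE2C were higher and KIF23 was lower. The median was then 0.062 for the members and 0.040 for all genes. With Jak2-10 the members' median was -0.005, and 0 of 46 passed the adjusted threshold, against 0.690% of all genes (0.0421% higher and 0.648% lower), whose median was 0.02. With Jak2-10 replicate 3 left out, the medians were 0.051 for the members and 0.044 for all genes. PLK1, AURKA, AURKB, CDC20, KIF4A, KIF20A, UBE2C and BIRC5 had all 3 Jak2-9 arrays above all 6 controls, 8 of 46 (17.4%), against 9.43% of all genes; KIF14 had all 3 below (3.81% of all genes). With Jak2-10 only PLK1 had its 3 arrays above the controls and only SPAG5 had them below, against 2.68% and 2.59% of all genes. Without Jak2-10 replicate 3 the members outside the controls numbered 7, with PLK1, AURKB, KIF4A, UBE2C, NEK2 and DLGAP5 above and SPAG5 below, against 14.6% of all genes in either direction; with fewer arrays such a count can only grow.

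The difference between the hairpins was tested directly, as Jak2-9 minus Jak2-10. No member passed, and no gene of the 11884 did (0%). At an unadjusted p under 0.05, 7 members differed (15.2%), against 9.85% of all genes: PLK1, AURKB, CCNB2, CDC20, KIF2C and UBE2C were higher with Jak2-9 (7.33% of all genes) and CENPF was lower (2.52%). The largest were CENPF at -0.57 (unadjusted p = 0.0480, adjusted p = 0.498) and AURKB at 0.34 (unadjusted p = 0.0189, adjusted p = 0.498). Without Jak2-9 replicate 1 no member had an unadjusted p under 0.05 (4.23% of all genes did), and without Jak2-10 replicate 3 only DLGAP5 did, which was lower (6.68% of all genes). Leaving out Jak2-9 replicate 1 put CENPF at -0.14 and AURKB at 0.20. PLK1, AURKB, CCNB2, CDC20, KIF2C, UBE2C, PTTG1, ESPL1 and FOXM1 had every Jak2-9 array above every Jak2-10 array, 9 of 46 (19.6%), against 8.76% of all genes, and 0 members had them below, against 2.97%.

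**Figure D3:**
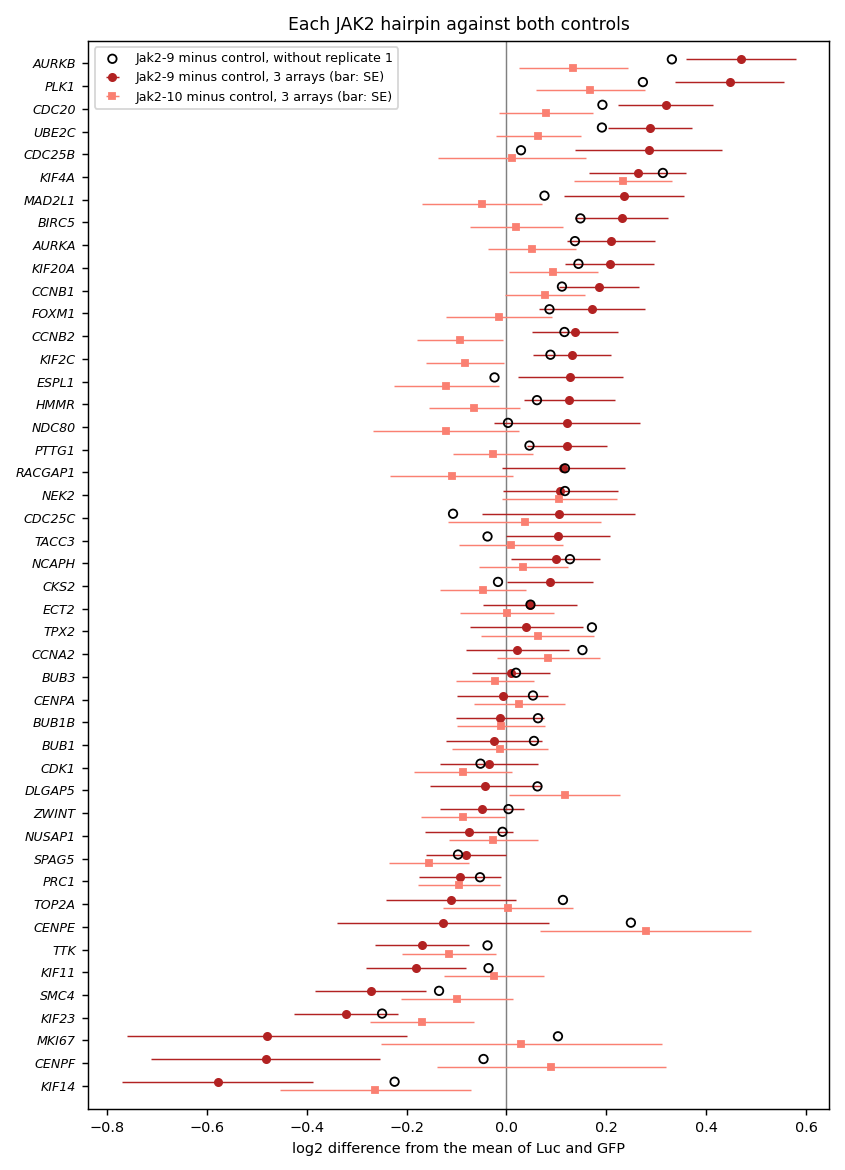
log2 difference of each of the 46 members from the mean of the controls with Jak2-9 (circles) and Jak2-10 (squares), with SE bars, and with Jak2-9 replicate 1 left out (open circles). AURKB and PLK1 are at 0.47 and 0.45 with Jak2-9 and at 0.13 and 0.17 with Jak2-10, and at the bottom the open circles of MKI67 and CENPF lie near 0.

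Jak2-9 replicate 1 decided several of these values. On that array the interquartile range of the members' differences from control was 0.571, against 0.489 over all genes, while on the other 11 arrays the members' range was 0.078 to 0.214. Seen against the other 2 Jak2-9 arrays, MKI67 was at -1.75, CENPF at -1.31, CENPE at -1.13, KIF14 at -1.07 and TOP2A at -0.67. CDC25B stood at 0.77, CDC25C at 0.63, PLK1 at 0.52 and MAD2L1 at 0.48 on the same scale. By role, the median difference from control on that array was 0.456 for exit and separation, 0.355 for the kinases and 0.316 for the entry switch, against -0.553 for chromosome structure, -0.142 for the kinetochore, -0.128 for the spindle and 0.045 for cytokinesis. Of the members, 4 of 46 (8.70%) were more than 2-fold away, against 2.13% of all genes. Leaving out that array turned the sign of the Jak2-9 difference for 12 of the 46 members.

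The further probe sets annotated to a member gave separate readings, and they did not all move alike. All 4 probe sets of MKI67 were low on Jak2-9 replicate 1, between -1.64 and -1.35 from the control mean. CENPF was at -1.35 and -0.93 at its brighter probe sets and at 0.10 at the dimmest, which averaged 4.35 and so lay below the brightest mouse probe set. BUB1 parted: its brightest probe set was at -0.18 on that array and the next at -1.09, against 0.09 and -0.05 on Jak2-9 replicate 2. SMC4 had -0.55 at its brightest and -0.90 at its next. The part of RNA or labelling quality in these values was not tested.

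**Figure D4:**
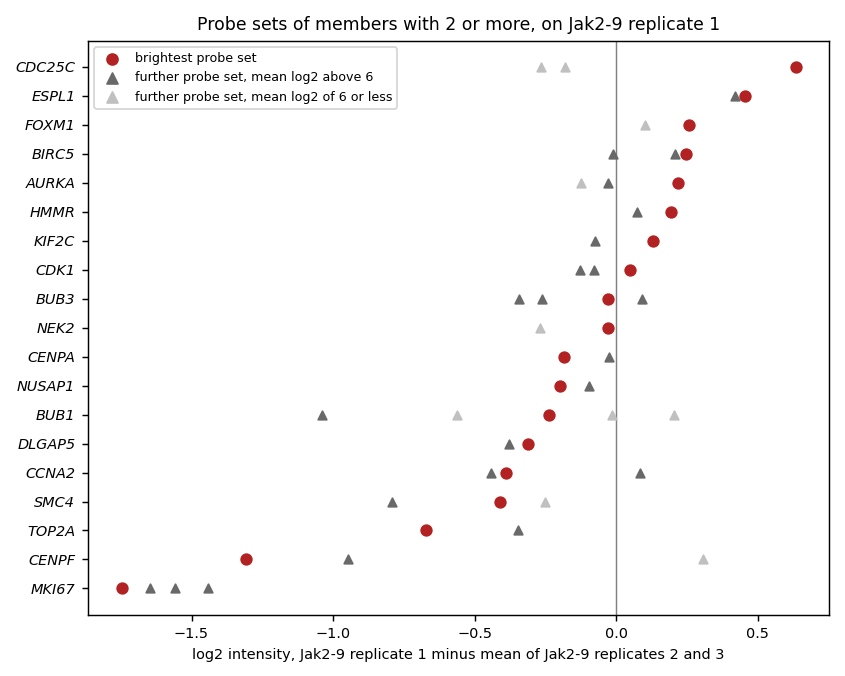
log2 intensity on Jak2-9 replicate 1 minus the mean of the other 2 Jak2-9 arrays, for every probe set of the 19 members that have 2 or more (circles, brightest; triangles, further ones, paler where the mean log2 intensity is 6 or less). All MKI67 probe sets lie left of -1.4, and the probe sets of BUB1 are spread between -1.04 and 0.20.

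When each of 22292 human probe sets was tested on its own, 2 of the 79 probe sets of the members were called lower after knockdown, against 2.53% of all, and 0 were called higher, against 0.633%. Both were further probe sets near background. The BUB1 probe set 215508_at read 4.74, 4.49 and 4.58 with Jak2-9, 4.57, 4.38 and 4.29 with Jak2-10, 5.33, 5.89 and 5.34 with Luc, and 5.26, 4.76 and 4.98 with GFP (log2 intensity), a difference of -0.75 (SE 0.11, adjusted p = 0.00116). All its knockdown arrays were below all its control arrays, and also below the brightest mouse probe set of their array. The control arrays were below that level too, except Luc replicate 2 (5.89, against 5.25). BUB1's brightest probe set differed by -0.02. The SMC4 probe set 215623_x_at, whose suffix marks probes shared with other sequences, read 4.24, 4.38 and 4.61 with Jak2-9, 4.56, 4.75 and 4.57 with Jak2-10, 4.96, 5.27 and 4.88 with Luc, and 5.49, 5.10 and 4.94 with GFP, a difference of -0.59 (SE 0.11, adjusted p = 0.00526). Its groups did not overlap either, and all its values lay within 4.24 to 5.49. A probe set for Alu repeats was also lower on all 6 knockdown arrays (13.94 to 14.15) than on all 6 controls (14.50 to 14.68), and its part in these values was not tested. With Jak2-9, 3 of the 79 were called higher (1.67% of all) and 3 lower (2.64% of all). AURKB, PLK1 and the BIRC5 probe set 202094_at (0.35, adjusted p = 0.0341) were the higher ones, and the lower ones were those of BUB1 and SMC4 and the NEK2 probe set 211080_s_at (-0.50, adjusted p = 0.0339). NEK2 was at 0.11 at its brighter probe set, so its probe sets disagreed, and BIRC5 had 0.23 and 0.04 at its others. With Jak2-10 the BUB1 probe set alone was called lower (-0.85, adjusted p = 0.00527; 1 of 79, against 1.30% of all).

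The controls gave the scale of difference without knockdown of JAK2. In Luc minus GFP no member and no gene was called (0%), and 1 member, CCNB2, had an unadjusted p under 0.05 (-0.22, unadjusted p = 0.0413), against 1.91% of all genes (0.900% in the same direction). The members ran from -0.28 for TOP2A to 0.18 for CDC25C, with a median of -0.035 against -0.012 over all genes. BUB3, CCNB1, CCNB2, KIF2C, TTK, TOP2A, UBE2C, ECT2 and HMMR had all Luc arrays below all GFP arrays, 9 of 46, against 5.87% of all genes. By array, 25 members (54.3%) lay above the control mean on Jak2-9 replicate 1, where 62.7% of all genes did. The count was 31 on Jak2-9 replicate 2 (62.7% of all genes), 32 on Jak2-9 replicate 3 (58.0%), 31 on Jak2-10 replicate 1 (63.9%) and 33 on Jak2-10 replicate 2 (63.2%). It was 11 (23.9%) on Jak2-10 replicate 3, against 41.3% of all genes. On the Luc arrays it was 18, 21 and 21, against 54.2%, 35.6% and 54.3% of all genes, and on the GFP arrays 37, 20 and 33, against 58.0%, 48.6% and 51.7%.

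Neighbouring parts of the cell cycle gave a few calls. Of 62 other mitosis genes 50 were measured, and 1 (2.00%) fell after knockdown, against 1.40% of all genes: KNTC1, a kinetochore protein of the checkpoint. KNTC1 read 8.77, 9.28 and 9.42 with Jak2-9, 9.30, 9.47 and 9.00 with Jak2-10, 9.80, 9.96 and 9.87 with Luc, and 9.58, 9.50 and 9.71 with GFP (log2 intensity), with no overlap between knockdown and control arrays (1.51% of all genes were lower without overlap), a difference of -0.53 (SE 0.11, adjusted p = 0.0206, 69.2% of control). With Jak2-9 KNTC1 was at -0.58 (adjusted p = 0.0351), the only 1 of the 50 called there, and with Jak2-10 at -0.48 (adjusted p = 0.252). The median of those 50 was -0.05. Of 42 genes of the G1/S step 40 were measured, with a median of 0.05, and 2 fell: CDC7, a kinase that fires replication origins (-0.41, adjusted p = 0.0276), and ORC6, a subunit of the origin recognition complex (-0.30, adjusted p = 0.0433). With Jak2-9, 1 of these 40 was called higher (MCM2, of the replicative helicase) and 1 lower (CDC7), against 1.61% and 1.48% of all genes. Of 13 brakes of the cell cycle 11 were measured and 0 were called; those with the lowest p after knockdown were E2F4, the repressor partner of the pocket proteins (0.24, adjusted p = 0.136), and RB1, the retinoblastoma protein (-0.21, adjusted p = 0.408).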

How the data were processed

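The 12 arrays were Affymetrix expression arrays of 1 colour, and 20 ng of total RNA was amplified linearly and biotin-labelled for each, per the labels' protocols. The deposited table holds intensity on a linear scale per probe set, made by the authors with RMA per the submitters' processing notes, which give no version. RMA corrects background, makes the arrays' distributions alike and shrinks differences of dim probe sets. A log2 table had been assumed in the design; the deposited intensities ran from 11.2 to 36234, so log2 was taken, without a pseudocount. Array medians lay between 44.9 and 49.1, and precision is limited by the number of arrays. No detection calls were used.

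Of 22930 probe sets, 524 control probe sets and 114 mouse probe sets (112 paired with a mouse gene) were left out of the tests. Of 22292 human probe sets, 19303 had 1 gene symbol, 125 several and 2864 none; 19290 were matched to RefSeq by Entrez identifier and 0 symbols changed. The brightest probe set stood for each of 11884 genes. For FOXM1, BUB3 and PTTG1 its name ends in _x_at, the suffix that marks probes shared with other sequences. The 4 group means were fitted to all arrays (limma 3.58.1, R 4.3.3, lmFit and eBayes), with Benjamini-Hochberg adjustment over all genes and a threshold of 0.05 for 5 contrasts. The fit was tested on simulated data.

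The members and lists were chosen with earlier results of these data known. Named with every array are members past the threshold, otherwise the 2 of each role with the lowest p after knockdown. The named other probe sets, and the members named for unadjusted p, for arrays that do not overlap or for Jak2-9 replicate 1, were chosen after their values were seen, as were the 4 promoters shown. Leaving out Jak2-9 replicate 1 or Jak2-10 replicate 3 from role medians and from counts by unadjusted p or by overlap was added after the data were seen. Promoter windows are RefSeq's (GRCh38.p14). Deviations of samples with the same replicate number correlated weakly (18 pairs, r from -0.12 to 0.18), and 5 pairs were over a limit of 0.1. With 3 arrays per group such correlations cannot settle whether the numbers pair samples. The fit did not use the numbers, except as a block in 1 alternative.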

Additional observations from a re-analysis of the deposited data

Results flagged for a closer look

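One value outside the gene measurements was above its level in the control arrays. The 7 E. coli hybridisation control probe sets, which are added to every array, averaged 10.73 on the log2 scale on Jak2-10 replicate 3, against 9.56 to 9.98 on the 6 control arrays and 9.39 to 9.98 on all other arrays. On the same array 11 of 46 members (23.9%) lay above the control mean, against 41.3% of all genes. Of the measured G1/S genes 8 of 40 (20.0%) did, and of the other mitosis genes 13 of 50 (26.0%). Whether these values are linked to the hybridisation controls was not tested. No member's difference between the hairpins passed its test.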

How the results depend on the processing

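Members called were recounted under every alternative, one choice at a time. After knockdown of JAK2, 0 members were called under every alternative except array weights. Those gave 3 (PLK1, AURKB and KIF4A), against 4.55% of all genes. In Jak2-9 against control, 2 members were called, 4 with each array centred on its median (PLK1, AURKB, CDC20 and UBE2C, all higher), 3 with the mean of all probe sets (SMC4 added, lower), 3 with an intensity trend (CDC20 added, higher), and 0 with GFP as the only control, with Luc as the only control, or with only the arrays compared. Leaving out each array in turn gave 0 to 6 there. There were 6 without Jak2-9 replicate 3 (CENPF and KIF14 lower), 4 without Jak2-9 replicate 2 (KIF14 and KIF23 lower) and 0 without Jak2-9 replicate 1. The cause was not tested. Calls over all genes moved between these settings too, so these counts alone show nothing particular to the members. With the replicate number as a block, members called were 0 after knockdown, 2 with Jak2-9 and 0 with Jak2-10, in the difference between the hairpins and between the controls, so the block changed no call.

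For the 14 members named with every array, leaving out each array in turn turned 4 values after knockdown or with Jak2-9 positive, each without Jak2-9 replicate 1: CENPF (-0.334 to 0.022) and MKI67 (-0.394 to 0.066) after knockdown, and MKI67 (-0.819 to 0.103) and ZWINT (-0.093 to 0.004) with Jak2-9. With array weights MKI67 after knockdown was at 0.012 and ZWINT with Jak2-9 at 0.005. Over all genes, calls after knockdown were 218, and 541 with array weights. With Jak2-9 they were 367 (191 higher and 176 lower), 972 with median centring (757 higher and 215 lower), and 156 to 1315 as arrays were left out. Of 791 recomputed values of single members and JAK2, 742 kept their direction and their side of the threshold. Of 105 medians of all members, 101 moved by less than 1 SD between arrays (0.053). Some settings, such as the replicate block, cannot move a median. The SD also exceeds the knockdown median of 0.025, so a turn to -0.003 with GFP as the only control was within it. These tallies therefore do not measure how firm the medians are. Differences under the spread between 3 arrays could not be resolved.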
